A study of Mus musculus with 6 samples.

Results

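The B7 family ligands are surface proteins through which antigen-presenting cells deliver the second signal to a T cell. CD80 and CD86 bind CD28, which activates, and CTLA-4, which restrains. ICOSL binds ICOS, PD-L1 (encoded by Cd274) and PD-L2 (encoded by Pdcd1lg2) bind the inhibitory receptor PD-1, and B7-H3 (encoded by Cd276) and B7-H4 (encoded by Vtcn1) are mostly described as inhibitory ligands. In the thymic medulla, CD80 and CD86 on epithelium and dendritic cells take part in negative selection and in the generation of regulatory T cells, and CD80 is the usual marker that separates mature (CD80 high) from CD80 low medullary thymic epithelial cells (mTEC). The 7 genes Cd80, Cd86, Cd274, Pdcd1lg2, Icosl, Cd276 and Vtcn1 were taken by symbol from the 52636 gene rows of the count table, with no threshold on their values, and all 7 passed the filter on low counts that left 32496 genes for testing.

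Bulk RNAseq libraries were made from 3 sorts of tuft-like and 3 sorts of non-tuft-like mTEC from thymi of C57BL/6 mice at 6 weeks of age. The labels describe both populations as UEA+ and MHCIIlo cells that lacked CD80, Sca1 and CD63. The tuft-like cells were CD117+ CD66a+, and the non-tuft-like cells CD117- CD66a-. Neither the sex of the mice nor whether each library came from separate animals is stated, so p-values measure the spread between these libraries, which may be partly technical. Because both populations were gated as CD80 negative, a difference in Cd80 RNA between them is not part of the gate that separates them. In bulk samples, fewer cells that carry a transcript and less transcript per cell cannot be told apart.

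Library depth on genes ran from 20097617 to 48369825 reads. The tuft cell genes Dclk1, Trpm5, Pou2f3, Il25 and Avil were higher in all 3 tuft-like libraries (log2 fold changes between 2.15 and 5.80, all past an edgeR false discovery rate, FDR, of 0.05), as was Ceacam1, which encodes the sort marker CD66a. Kit, which encodes CD117, had a log2 fold change of 1.24 and missed the threshold (edgeR FDR 0.0678). Epcam was not called (log2 fold change 0.10). The keratin genes Krt8 and Krt5 were not called either (log2 fold changes 0.67 and -3.02, edgeR FDR 0.968 and 0.0985). Foxn1, the transcription factor of thymic epithelium, was called lower (log2 fold change -3.48, edgeR FDR 0.000430). Reads that the counting classed as having no feature made up between 19.7% (tuft-like replicate 3) and 61.6% (tuft-like replicate 1) of all reads, other classes included. As a yardstick for background, the level of 1092 olfactory receptor genes per exon length was used. Their mean was 0.0725 CPM per exon kb in tuft-like replicate 3 and between 0.179 and 0.631 in the other 5 libraries, and their 99th percentile, named the background ceiling here, was taken in each library separately.

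To set the one called ligand beside the most abundant one, which was not called, the 250 bases upstream of the RefSeq start of Icosl (chr10:78069118-78069367) and of Cd274 (chr19:29367188-29367437), both on the plus strand of GRCm38.p6, are shown. The GENCODE annotation, used here for gene locations, starts Icosl earlier, at 78069302. The end of the Icosl window, with its GC box, therefore lies inside the gene as annotated there. Capitals mark matches, on either strand, to a GC box (GGGCGG) and to the NF-kB consensus.
Icosl: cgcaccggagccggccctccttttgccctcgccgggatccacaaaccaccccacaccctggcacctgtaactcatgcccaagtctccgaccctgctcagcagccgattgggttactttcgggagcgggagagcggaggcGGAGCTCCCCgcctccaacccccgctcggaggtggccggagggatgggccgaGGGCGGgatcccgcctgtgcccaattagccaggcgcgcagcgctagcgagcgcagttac
Cd274: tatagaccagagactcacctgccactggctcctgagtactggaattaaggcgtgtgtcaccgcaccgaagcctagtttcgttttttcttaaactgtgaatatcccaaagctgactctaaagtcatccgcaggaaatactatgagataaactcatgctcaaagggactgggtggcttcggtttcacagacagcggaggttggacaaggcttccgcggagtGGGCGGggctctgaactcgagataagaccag
Both windows held 1 GC box, which begins 59 bases before the start of Icosl and 31 bases before that of Cd274, and which 32.7% of 32841 such windows of the mouse genome contain. The Icosl window also held 1 match to the NF-kB consensus, 111 bases before the start, which 7.25% of all windows contain. The window of Pdcd1lg2, which was not called, held 1 such match too, 244 bases before the start. Neither window held the GAS motif (TTCNNNGAA), the interferon regulatory factor element or a TATA box (TATAAA), which occur in 7.02%, 2.98% and 12.4% of windows. The Icosl window had 23 CpG dinucleotides and the Cd274 window 11, against a median of 6. The 2 matches in the Icosl window do not overlap, and a match of letters is a description and not a shown binding site.

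Icosl was the only one of the 7 ligands that passed the test, and it fell. Its protein is the partner of ICOS on T cells. Icosl (ENSMUSG00000000732, chromosome 10, 78069302 to 78083913 of mm10) had 4818, 7063 and 3728 reads in non-tuft-like replicates 1, 2 and 3, equal to 152.0, 150.4 and 118.5 CPM (reads per 1000000 counted on genes, after TMM scaling). In tuft-like replicates 1, 2 and 3 it had 403, 658 and 369 reads, equal to 16.7, 19.2 and 10.2 CPM. The lowest non-tuft-like library thus stood well above the highest tuft-like library. Means were 140.3 ± 18.9 and 15.4 ± 4.66 CPM (SD, n = 3 each), and the log2 fold change of -3.19 (standard error 0.33, 95% interval -3.93 to -2.45, edgeR FDR 0.000898) corresponds to a level 9.13-fold lower in tuft-like mTEC. Among all tested genes 2.11% were called, and 0.951% were called lower in tuft-like mTEC. Leaving out any 1 library, the log2 fold change lay between -3.39 and -3.01 and stayed called. By exact permutation of the libraries the two-sided p was 0.1, which is the minimum for 3 against 3.

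The remaining Icosl RNA of the tuft-like libraries was low but above background. Per exon length it stood at 1.30, 2.06 and 1.75 times the background ceiling in tuft-like replicates 1, 2 and 3. In the non-tuft-like libraries it stood between 9.35 and 18.8 times that ceiling. After subtraction of the background rate from every gene the log2 fold change of Icosl was -3.26 (edgeR FDR 0.00105). The plot of CPM by library shows the gap.

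**Figure D1:**
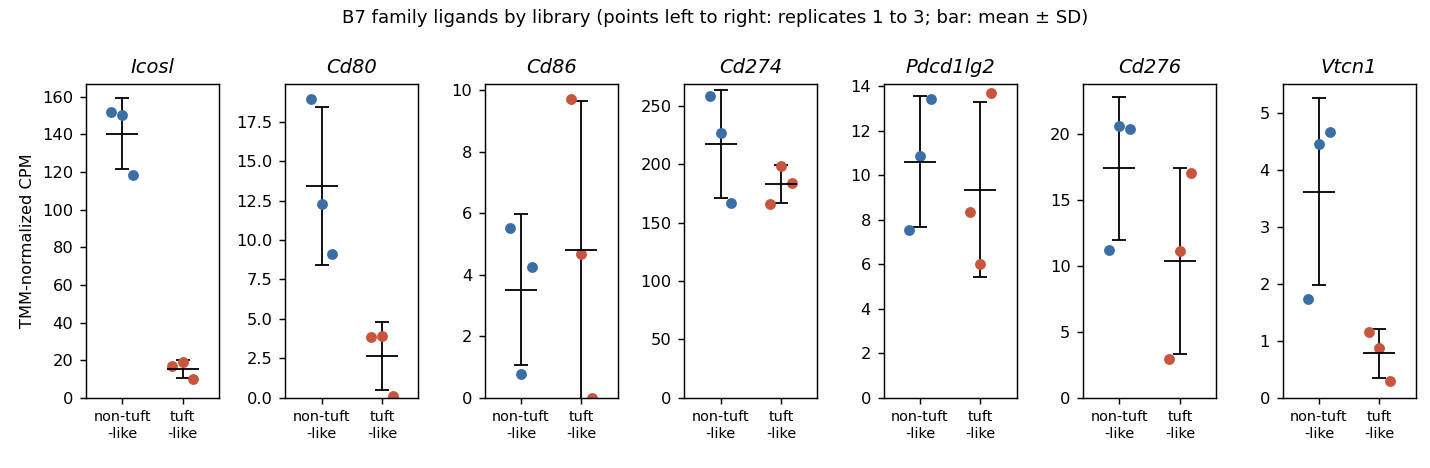
TMM-normalized CPM (linear axes, one scale per gene) of the 7 ligands in each of the 3 non-tuft-like (blue) and 3 tuft-like (red) libraries, with mean ± SD in black. Icosl separates widely, at 118.5 CPM or more against 19.2 CPM or less, whereas the Cd274, Pdcd1lg2, Cd276 and Cd86 points of the populations interleave.

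Cd274, which encodes PD-L1, was the most abundant ligand of the family in both populations and was not called. Cd274 (ENSMUSG00000016496, chromosome 19, 29367455 to 29388095) had 8180, 10638 and 5255 reads in non-tuft-like replicates 1, 2 and 3, equal to 258.1, 226.5 and 167.0 CPM. In tuft-like replicates 1, 2 and 3 it had 4009, 6781 and 6665 reads, equal to 165.7, 198.2 and 184.1 CPM. The groups overlapped, since tuft-like replicates 2 and 3 exceeded non-tuft-like replicate 3. Cd274 had a log2 fold change of -0.25 with a 95% interval of -0.86 to 0.37 (edgeR FDR 1), an interval that holds both no change and a decrease of 0.86 on the log2 scale. In every library Cd274 was at 16.5 times the background ceiling or more. Of its 3622 exonic bp, 511 are shared with AC119228.1 on the other strand, and whether counting used strand is not given in the sources used here.

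Pdcd1lg2, the gene of PD-L2, lies 22.8 kb downstream of Cd274 on the same strand with no annotated gene between them. Its non-tuft-like libraries, in replicate order, had 7.54, 10.9 and 13.4 CPM. Its tuft-like libraries had 8.35, 5.99 and 13.7 CPM, so that the lowest and the highest library both were tuft-like. The log2 fold change was -0.18 (standard error 0.63, 95% interval -1.59 to 1.22, edgeR FDR 1). Pdcd1lg2 exceeded the background ceiling in all 6 libraries and was at 1.51 to 5.52 times its value. The ratio of Cd274 to Pdcd1lg2 reads within a library does not depend on the scaling between libraries. It was 34.2, 20.8 and 12.4 in non-tuft-like and 19.8, 33.0 and 13.5 in tuft-like libraries. On the log2 scale the ratio averaged 4.37 ± 0.73 and 4.37 ± 0.65 (SD, n = 3 each), with an exact permutation p of 1 (two-sided, 1 after Benjamini-Hochberg adjustment over the 2 ratios computed).

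Cd80 had lower values in tuft-like mTEC, without overlap, but did not pass the test. Cd80 (ENSMUSG00000075122, chromosome 16, 38455561 to 38496335) had 600, 577 and 287 reads in non-tuft-like replicates 1, 2 and 3, equal to 18.9, 12.3 and 9.12 CPM. It had 93, 134 and 5 reads in tuft-like replicates 1, 2 and 3, equal to 3.84, 3.92 and 0.138 CPM. Tuft-like replicate 3, the library with the least background, was thus far below the other tuft-like libraries. The log2 fold change was -2.35 (standard error 1.06, 95% interval -4.71 to 0.000298, edgeR FDR 0.557), and over 14 alternative settings it ranged from -3.46 to -1.83 with an FDR of at least 0.128. Per exon length, Cd80 exceeded the background ceiling in non-tuft-like replicates 1 and 2 (2.87 and 1.91 times), and it lay below it in non-tuft-like replicate 3 (0.898) and in all 3 tuft-like libraries (0.374, 0.524 and 0.0296).

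Cd86, the other ligand of CD28 and CTLA-4, lies 1789.5 kb from Cd80 on chromosome 16 (36603869 to 36666081, ENSMUSG00000022901) on the opposite strand. Its reads numbered 175, 37 and 134 in the non-tuft-like libraries, in replicate order, and 235, 160 and 0 in the tuft-like ones. The 0 of tuft-like replicate 3 allows up to 0.0828 CPM, against 9.71 and 4.68 CPM in tuft-like replicates 1 and 2. Cd86 was below the background ceiling in all 6 libraries. Against the mean olfactory receptor rate, its level varied by library. It stood at 8.42 times that rate in non-tuft-like replicate 1 and 1.11 times in non-tuft-like replicate 2. In tuft-like replicate 1 it stood at 4.21 times, and in tuft-like replicate 3 at 0. Its log2 fold change was 0.44 with a standard error of 1.61 (edgeR FDR 1), and the sign turned without tuft-like replicate 1 (-0.59). The log2 ratio of Cd80 to Cd86 reads was 2.27 ± 1.49 in non-tuft-like and 0.62 ± 2.51 in tuft-like libraries (SD, n = 3 each, exact permutation p 0.40, two-sided, 0.80 adjusted over the 2 ratios). In tuft-like replicate 3 the ratio rests on 5 against 0 reads and on the 0.5 added to each count, and Cd86 was below the background ceiling throughout, so the ratio is of limited use. The difference was -1.65 with all libraries and -3.07 without tuft-like replicate 3, where the populations did not overlap.

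**Figure D2:**
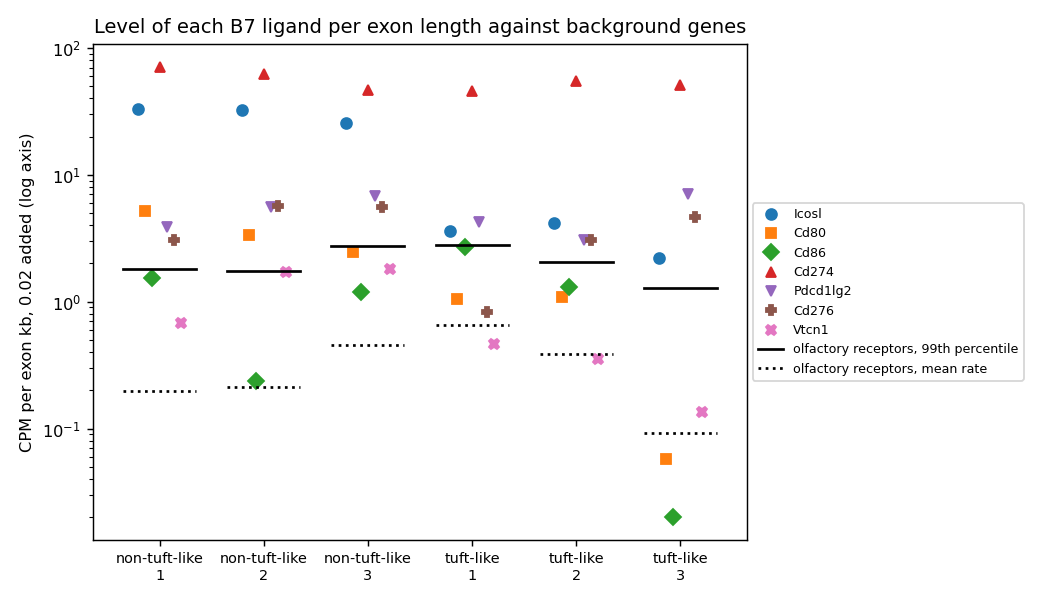
CPM per exon kb of each ligand (symbols, log axis, 0.02 added) in the 6 libraries, with the mean rate (dotted line) and the 99th percentile (solid line) of 1092 olfactory receptor genes in the same library. Cd274 and Pdcd1lg2 lie above the solid line in all 6 libraries, Icosl too, and Cd86 and Vtcn1 lie below it in all 6.

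Cd276, which encodes B7-H3 (ENSMUSG00000035914, chromosome 9, 58524298 to 58555437), varied as much within as between the populations. Its non-tuft-like libraries, in replicate order, had 11.2, 20.6 and 20.4 CPM, and its tuft-like libraries 2.98, 11.1 and 17 CPM. The low end was tuft-like replicate 1 with 72 reads, and the other libraries overlapped. The log2 fold change was -0.75 (standard error 0.66, 95% interval -2.21 to 0.72, edgeR FDR 1). Per exon length Cd276 exceeded the background ceiling in 5 libraries, the exception being tuft-like replicate 1, and 416 of its 3658 exonic bp are shared with Gm10657 on the other strand.

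Vtcn1, which encodes B7-H4 (ENSMUSG00000051076, chromosome 3, 100825459 to 100896922), had 55, 210 and 147 reads in the non-tuft-like libraries, in replicate order, and 28, 30 and 11 in the tuft-like ones. These equal 1.74, 4.47 and 4.67 CPM and 1.16, 0.877 and 0.304 CPM. All tuft-like libraries were below all non-tuft-like libraries, but in all 6 libraries the level per exon length was below the background ceiling. The log2 fold change of -2.22 was not called (95% interval -5.14 to 0.70, edgeR FDR 0.872).

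Of the 7 ligands, 1 was called lower and 0 were called higher by edgeR's quasi-likelihood test. At an unadjusted p under 0.05 it gave 1 ligand, against 8.97% of all tested genes. DESeq2 called 1 lower, against 2.86% of genes, and limma voom called 1, against 905 of 32496 tested genes. In 3 of the 7 the populations did not overlap, in each case with lower values in tuft-like mTEC, against 8.85% of all tested genes that did not overlap in this direction. The median log2 fold change of the 7 was -0.75, beside 0.02 over all tested genes.

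**Figure D3:**
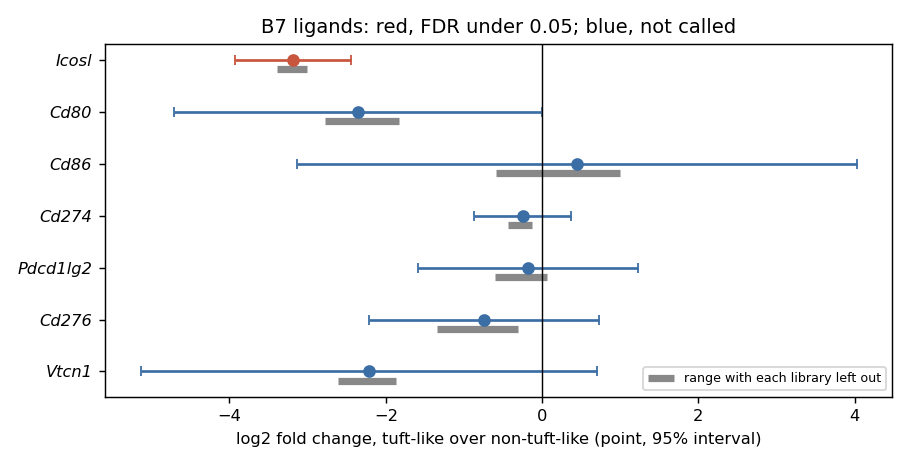
Log2 fold change (tuft-like over non-tuft-like) of each ligand with its 95% interval from edgeR, and below it in grey the range of the estimate with each of the 6 libraries left out. The interval of Icosl (red) runs from -3.93 to -2.45, and the intervals of the other 6 ligands (blue) reach or cross 0.

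Levels of different genes were compared per exon length. In non-tuft-like mTEC Cd274 had 60.0 ± 12.8 CPM per exon kb and Icosl 30.4 ± 4.09, followed by Pdcd1lg2 (5.41 ± 1.5), Cd276 (4.76 ± 1.47), Cd80 (3.63 ± 1.35), Vtcn1 (1.38 ± 0.626) and Cd86 (0.962 ± 0.670; SD, n = 3). The libraries of Cd274 did not overlap those of Icosl, nor those of Icosl the libraries of Pdcd1lg2. Pdcd1lg2 overlapped Cd276, and Cd276 overlapped Cd80. Cd80 did not overlap Vtcn1, and Vtcn1 overlapped Cd86. In tuft-like mTEC Cd274 had 50.4 ± 4.50 CPM per exon kb, far above Pdcd1lg2 (4.76 ± 2.01), Icosl (3.32 ± 1.01), Cd276 (2.83 ± 1.93), Cd86 (1.31 ± 1.33), Cd80 (0.711 ± 0.584) and Vtcn1 (0.297 ± 0.166; SD, n = 3). Below Cd274, each pair of neighbours in the tuft-like order overlapped.

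The make-up of the family's RNA within a library follows from these levels. Cd274 made up 60.2%, 56.1% and 51.5% of the summed CPM per exon kb of the 7 ligands in the non-tuft-like libraries, in replicate order, against 78.1%, 80.9% and 78.4% in the tuft-like ones. Icosl made up 27.8%, 29.2% and 28.6% in non-tuft-like and 6.16%, 6.15% and 3.40% in tuft-like libraries. The populations did not overlap in either share, which are not independent of each other. The sum itself ran from 89.6 to 118.3 CPM per exon kb in non-tuft-like and from 58.6 to 67.7 in tuft-like mTEC.

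**Figure D4:**
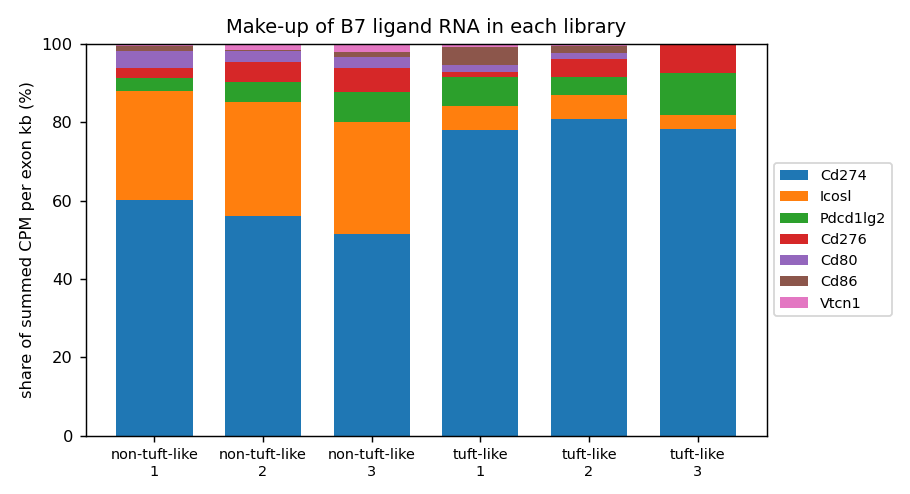
Share (%) of each ligand in the summed CPM per exon kb of the 7 ligands, one bar per library. The Cd274 share is at most 60.2% in the non-tuft-like and at least 78.1% in the tuft-like libraries, and the Icosl share falls from at least 27.8% to at most 6.16%.

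The genes whose profile over the 6 libraries was most like that of Icosl (Pearson's r of log2 CPM, over 11590 genes averaging 10 CPM or more) were Nlrp10 (r 0.999), Ppa1 (r 0.998) and Gm12407 (r 0.997). With 6 libraries such values are common, and 214 genes had an r of at least 0.95 with Icosl. For Cd274, Chil4 (r 0.99) and Mcf2l (r 0.988) were among 47 genes at or above 0.95. The log2 fold changes of Chil4 and Mcf2l were -1.62 and -0.39. These correlations describe 6 libraries that share their preparation and the split into populations.

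Among genes that act with the ligands, that of the CD40 receptor, through which T cells license antigen-presenting cells, also fell. The median log2 fold change of 10 genes of RANK, CD40 and NF-kB signalling, which drives mTEC maturation, was -0.40. Of these, 1 was called lower, against 0.951% of all tested genes, and 0 higher, against 1.16%. This was Cd40, with 94.0, 140.9 and 78.7 CPM in non-tuft-like and 4.55, 6.11 and 14.9 CPM in tuft-like replicates 1, 2 and 3 (log2 fold change -3.61, standard error 0.49, edgeR FDR 0.00352). In tuft-like replicates 1 and 2 Cd40 was below the background ceiling (0.481 and 0.888 times). The log2 fold change of Relb, the NF-kB subunit of the alternative pathway, was -1.39 (edgeR FDR 0.149), and that of Tnfrsf11a, which encodes RANK, was -1.32 (edgeR FDR 0.0640). Relb and Tnfrsf11a did not pass the test. In 3 of the 10 genes (Cd40, Relb and Tnfrsf11a) all tuft-like libraries were lower, which held for 8.85% of all tested genes.

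Interferon gamma is the best known inducer of PD-L1. Of 10 genes of that signalling route, 0 were called by edgeR, with a median log2 fold change of -0.29. At an unadjusted edgeR p under 0.05 there were 3, against 8.97% of all tested genes. DESeq2 called 1, against 1902 of 32496 tested genes, and limma voom 1, against 905. In 3 of the 10 all tuft-like libraries were lower, against 8.85% of all tested genes. These were Stat3, Ifngr1 (log2 fold change -0.85, edgeR FDR 0.274) and Ifngr2 (-0.66, edgeR FDR 0.554). Irf1, an interferon-induced transcription factor, averaged 236.6 ± 53.0 CPM without and 194.2 ± 65.0 CPM with the tuft-like sort markers (SD, n = 3), and was not called. Stat3 (log2 fold change -1.06, edgeR FDR 0.126) was the gene that DESeq2 and limma voom called. Cmtm6, which keeps PD-L1 protein at the surface, was at 352.9 ± 44.8 and 276.9 ± 100.6 CPM (SD, n = 3), with a log2 fold change of -0.35 (95% interval -1.07 to 0.37). Of Cmtm6 and its relative Cmtm4, 0 were called by edgeR, DESeq2 or limma voom, and 1 (Cmtm4, log2 fold change 1.18) had an unadjusted p under 0.05.

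Of 17 other costimulatory and checkpoint ligands, 1 was called higher, against 1.16% of all tested genes, and 1 lower, against 0.951%. The list median of the log2 fold change was -0.65. The lower one was Icam1, the adhesion ligand of LFA-1 on T cells, with 434.2, 382.8 and 330.9 CPM in non-tuft-like and 59.6, 50.9 and 63.4 CPM in tuft-like replicates 1, 2 and 3 (log2 fold change -2.72, standard error 0.28, edgeR FDR 0.000886). The higher one was Cd47, which binds SIRP alpha on phagocytes, with 259.0, 298.8 and 211.5 CPM in non-tuft-like and 567.1, 869.2 and 1051 CPM in tuft-like replicates 1, 2 and 3 (log2 fold change 1.69, standard error 0.34, edgeR FDR 0.0308). Cd47 lost its call without any 1 non-tuft-like library or without tuft-like replicate 2 (edgeR FDR up to 0.18) and with the replicate number as a block (0.170). Lgals9, a ligand of TIM-3, and Cd24a, a ligand of Siglec receptors, had log2 fold changes of 1.10 and 1.35 without passing the test (edgeR FDR 0.126 and 0.0950). Without overlap between the populations, 3 of the 17 were higher in tuft-like mTEC (Cd47, Lgals9 and Cd24a), against 7.18% of all tested genes, and 5 were lower (Icam1, Lgals3, Nectin3, Cd70 and Tnfrsf14), against 8.85%. Of the lower ones, Lgals3 (log2 fold change -1.51), Nectin3 (-1.58), Cd70 (-2.09) and Tnfrsf14 (-0.85) did not pass the test.

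Of 12 relatives of the B7 family (VISTA, encoded by Vsir, Vsig4, and butyrophilin and related genes), 0 were called by edgeR, DESeq2 or limma voom, with 0 at an unadjusted p under 0.05 (median log2 fold change -0.38). Vsir averaged 23.5 ± 7.18 CPM in non-tuft-like and 9.86 ± 7.46 in tuft-like libraries (SD, n = 3), and its log2 fold change of -1.26 was not called (edgeR FDR 0.896). In tuft-like replicate 3 Vsir had 1.24 CPM, below the background ceiling (0.196 times), against 14.2 and 14.1 CPM in tuft-like replicates 1 and 2. In 2 of the 12 (Vsir and Btn2a2) all tuft-like libraries were lower, against 8.85% of all tested genes. Btn2a2 had a log2 fold change of -1.81 and was not called (edgeR FDR 0.808). Of the 12, only Btnl2 and Btnl6 were above the background ceiling in all 6 libraries. Of 7 genes listed as receptors (Cd28, Ctla4, Icos, Pdcd1, Rgmb, Il20ra and Trem2, the last 2 not established partners), 0 were called by edgeR, DESeq2 or limma voom, with 0 at an unadjusted p under 0.05 and a median of -0.29. Cd28, Icos and Il20ra were below the ceiling in all 6 libraries.

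**Figure D5:**
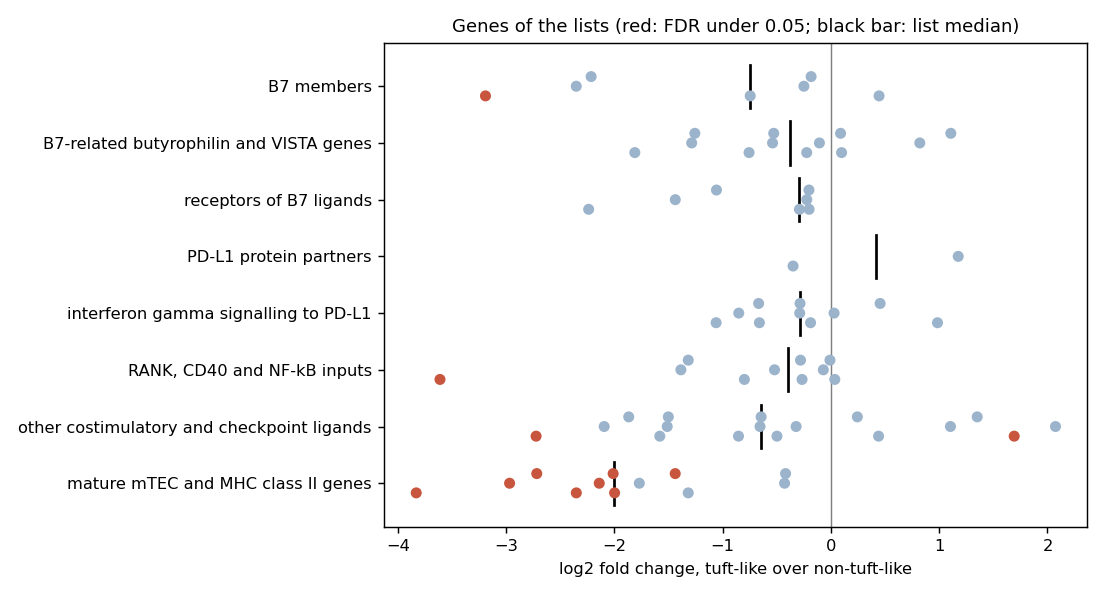
Log2 fold change (tuft-like over non-tuft-like) of each tested gene in 8 lists, one row per list, with genes at an edgeR FDR under 0.05 in red and the list median as a black bar. Red points are Icosl among the B7 members, Cd40, Icam1, Cd47, and 8 of the 12 mature mTEC and MHC class II genes.

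Of 12 genes of mature mTEC and MHC class II presentation, 8 were called lower, against 0.951% of all tested genes, and 0 higher (median log2 fold change -2.01), among them Ciita, the master regulator of MHC class II (log2 fold change -2.97, edgeR FDR 0.00114), Aire and Fezf2. Aire, Fezf2 and Ciita kept their call without any 1 library. Cd74, H2-Aa, H2-Ab1, H2-Eb1 and H2-DMa each lost it without at least 3 of the libraries taken 1 at a time, non-tuft-like replicates 1 and 2 included (edgeR FDR up to 0.466), and with the replicate block (0.0512 to 0.659).

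Markers of several cell types, among them cells that carry B7 ligands, were read beside these values. Of 17 dendritic cell, macrophage and B cell markers, between 11 and 13 were at or below the background ceiling in each library. The 9 that were below it in all 6 libraries included Itgax, Flt3, Adgre1, Ms4a1 and Cd79a. The 3 above it in all 6 were Cd14, Lyz2 and Cd79b. Zbtb46, Csf1r, Batf3, Xcr1 and Cd209a were above it in some libraries. Zbtb46 was below it only in tuft-like replicate 1 (0.906 times). Csf1r reached 2.50 times in non-tuft-like replicate 2 and 1.94 times in tuft-like replicate 3. The list summed to between 289.9 and 411.8 CPM in the non-tuft-like and between 283.0 and 362.1 CPM in the tuft-like libraries, with Lyz2 the largest part. It held 1 called gene, Cd79b, which encodes a B cell receptor chain (8.42 ± 3.07 CPM in non-tuft-like and 77.6 ± 27.3 in tuft-like libraries, SD, n = 3, log2 fold change 3.20, edgeR FDR 0.00317). Among all tested genes 1.16% were called higher. Of 10 thymocyte markers, between 8 and 10 were at or below that ceiling in each library, the list summed to between 20.5 and 32.7 CPM in the non-tuft-like and between 8.51 and 38.4 CPM in the tuft-like libraries, and edgeR, DESeq2 and limma voom called 0 of the 9 tested, with 0 at an unadjusted p under 0.05. Of 9 fibroblast and endothelial markers edgeR, DESeq2 and limma voom called 0. At an unadjusted edgeR p under 0.05 there was 1, against 8.97% of all tested genes. Their log2 fold changes ran from 0.23 to 3.42 (median 1.17). In 2 of the 9 (Pdgfrb and Lum) all tuft-like libraries were higher, against 7.18% of all tested genes. The list summed to between 44.0 and 292.1 CPM, the highest value in tuft-like replicate 1. There Pecam1 had 106.3 CPM, against 8.16 and 3.07 CPM in tuft-like replicates 2 and 3. The 8 keratinocyte markers summed to between 3232 and 5370 CPM in the non-tuft-like and between 136.1 and 1310 CPM in the tuft-like libraries. Of these, 4 were called lower in tuft-like mTEC, against 0.951% of all tested genes. In single-cell data the paper detected keratinocyte-like signatures within the mature mTEC population. Whether these markers came from mTEC or from other cells was not tested. The part of these cell type markers in the Icosl difference was not tested.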

How the data were processed

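Libraries of 3 non-tuft-like and 3 tuft-like sorts were prepared from low-input RNA. After trimming (Trimmomatic 0.36), alignment to mm10 (STAR 2.7.3a) and assignment to genes (HTSeq, intersection-nonempty), the authors deposited whole read counts per gene, without normalization. Strandedness of counting and the gene annotation used are not given in the sources used here. Gene identifiers were matched to GENCODE M21, which names 99.7% of gene rows. Rows of reads without a gene stayed out of library sizes.

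Groups came from the sample labels. Counts were filtered (filterByExpr, minimum count 10, minimum total 15), TMM-normalized and tested with edgeR's quasi-likelihood test (R 4.3.3, edgeR 4.0.16, limma 3.58.1, DESeq2 1.42.0) without covariates, with Benjamini-Hochberg adjustment over all 32496 tested genes. Standard errors are the absolute log2 fold change over the square root of F. Levels per exon kb use the union of GENCODE exons, and log2 CPM had 0.5 added. A count of 0 allows up to 3 counts, and such limits cover counting error only.

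The ligands and gene lists were chosen with earlier results of these data known. All 7 ligands were named, from the other lists the genes past FDR 0.05 and the identity genes, and the 3 genes most correlated with Cd274 and Icosl. Some genes these rules select are not reported here. Other list genes (Stat3, Irf1, Ifngr1, Ifngr2, Relb, Tnfrsf11a, Cmtm6, Cmtm4, Lgals9, Cd24a, Vsir, Btn2a2, Btnl2, Btnl6, Lgals3, Nectin3, Cd70, Tnfrsf14, Pdgfrb, Lum, Pecam1) and Foxn1, Krt8 and Krt5 were picked with their values known. So were the named dendritic cell, macrophage and B cell markers that were not called. Alternatives were other normalizations, tests and filters, a block for replicate number, leaving out each library, and subtraction of background, which was added after seeing the data. Promoter sequences are RefSeq's (GRCm38.p6), found for 6 of the 7 ligands.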

Additional observations from a re-analysis of the deposited data

Results flagged for a closer look

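Reads classed as having no feature, unused in the comparisons above, were 61.6% of the reads in tuft-like replicate 1, above the highest non-tuft-like library (52.5%). In that library the olfactory receptor genes had a mean of 0.631 CPM per exon kb, Cd86 had its highest level (9.71 CPM) and Cd276 its lowest (2.98 CPM). The part of background reads in these values was not tested.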

How the results depend on the processing

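Icosl was called lower in all 14 settings, with a log2 fold change between -3.39 and -3.01, and no other ligand was called in any setting that gave an adjusted p, so the number of called ligands was 1 in each. DESeq2 gave none for Vtcn1. The sign of Cd86 turned under limma voom (-1.68), with the replicate block (-0.017), without non-tuft-like replicate 2 (-0.04) and without tuft-like replicate 1 (-0.59), within an overall range of -1.68 to 0.99. Pdcd1lg2 lay between -0.60 and 0.057 with each library left out, and turned without tuft-like replicate 2. The cause was not tested. Vtcn1 reached -6.34 after background subtraction, which leaves the tuft-like libraries near 0 reads, so that value depends on edgeR's prior count. The difference in the log2 ratio of Cd80 to Cd86 lay between -3.07 and -0.67 with each library left out. That of Cd274 to Pdcd1lg2 lay between -0.37 and 0.36, around a value of -0.0035 with all libraries, and turned without non-tuft-like replicate 1 (0.36) or 2 (0.0017) and without tuft-like replicate 1 (0.03) or 3 (0.31).

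The number of genes called among all tested, 687, moved by more than 1.5 times with DESeq2 (1902), library size only (1045), no filter on low counts (1127) and background subtraction (1054), and lay between 376 (without tuft-like replicate 2) and 922 (without tuft-like replicate 3), with 379 without non-tuft-like replicate 2. Of the calls, 378 of 687 were higher in tuft-like mTEC, against 310 of 922 without tuft-like replicate 3 and 467 of 743 without tuft-like replicate 1. Deviations of libraries with the same replicate number correlated at -0.117, -0.0462 and -0.290 for replicates 1, 2 and 3. Whether libraries with the same number came from the same mice is not stated, and these values cannot settle it. The main test assumed no pairing. With the replicate block 737 genes were called. The median log2 fold change of all genes moved from 0.02 to -0.17 under limma voom, to -0.20 without tuft-like replicate 1 to 0.15 without non-tuft-like replicate 3 and to 0.14 without tuft-like replicate 3. Among the other called genes that are named, Cd47, Cd74, the 4 H2 genes, Pou2f3, Dmkn and Ivl lost their call in some settings, and none changed sign. Cd86, Vtcn1 and, in tuft-like mTEC, Cd80 were below the background ceiling, which limits what can be said of them. Cd86 had 235 reads in the shallowest library and 37 in the deepest, and Vtcn1 had 28 and 210. The part of depth in these levels was not tested.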
